A study of Rattus norvegicus with 9 samples.

Results

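Cytoplasmic ribosomal protein genes encode the protein part of the ribosomes that translate nuclear-encoded mRNA. They were chosen here by name and type: genes typed as mRNA in the deposited table whose symbol starts with Rpl or Rps followed by a number, or with Rplp, or is Rpsa, without the S6 kinases, and with at least 90 reads counted over the 9 rats. Of 89 mRNA names that fit, 78 reached that sum, out of 37209 genes in the table. By name, 45 belong to the large subunit (Rpl) and 33 to the small subunit (Rps and Rpsa). The rule itself uses no value of a group comparison, but earlier results of these data were known when it was chosen.

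A ribosome joins a large and a small subunit, each built in the nucleolus from rRNA and ribosomal proteins, with 1 copy of nearly every protein. Their amounts are kept in balance, and the translation of their mRNAs is controlled together through a run of pyrimidines at the very start of the mRNA, the 5′ terminal oligopyrimidine (TOP) motif, which responds to the kinase complex mTORC1. In neurons ribosomal protein mRNAs are also carried into dendrites and axons, where local translation serves synapses.

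RNA of the frontal cortex (prefrontal cortex, PFC) of 9 male Wistar rats had been depleted of rRNA and sequenced, and reads had been counted per gene. The labels give an age of 14 weeks for all rats. The Control group (rats A1, A2 and A6) was left with the mothers until weaning, and the MS group (maternal separation, rats B3, B4 and B6) was kept from the mothers for 4 h per day from postnatal day 1 to 21. The MS+EA group (rats C3, C10 and C16) was separated in the same way and then received electroacupuncture (EA), an electrical current through needles at the acupoints GV20 and GV29, every other day from day 61 to 81. All groups shared the anaesthesia of these sessions, which the Control and MS rats received without needles, so MS+EA and MS differed in needling and current together. No EA was given to rats without separation. Each value rests on 1 rat, and whether the 3 rats of a group came from separate litters was not given in the sources used here.

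The rule held for 2 genes whose products are not ribosomal proteins. Rps19bp1 encodes a protein that binds Rps19, and Rpl7l1 encodes a relative of Rpl7 that acts in ribosome assembly. Just inside the limit lay Rpl38 with 114 counts and Rps4y2 with 124, and just outside it Rps28 with 65. The other names left out held 46 counts or fewer, among them Rpl3l (46), Rpl8 (37), Rpl7a (31) and Rps19 (4), and Rpl35a and Rps19l1 were listed at 0. Loci now named as copies of Rpl8 and Rps19 held far more counts than the genes, as described further on, and those of Rpl7a held 3. No member had more than 22.8% of its counts in a single rat.

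The start of a ribosomal protein mRNA is the feature that its translational control reads, so the start sites of the genes that the results below turn on are shown first. RefSeq held a promoter for 62 of the 78 genes in the rat assembly GRCr8, while the reads had been mapped to Rnor_6.0. Each line gives 10 bases before and 20 bases from the annotated start onward, 5′ to 3′ on the strand of the gene. Capitals mark an unbroken pyrimidine run that opens with a C at the start and holds at least 4 further C or T. Rpl41, Rpl29 and Rps27a had no such run at the annotated start.
Rpl10 (chrX:157205840-157205869, + strand): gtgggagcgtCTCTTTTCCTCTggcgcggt
Rps15 (chr7:10068096-10068125, - strand): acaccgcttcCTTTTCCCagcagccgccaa
Rpl10a (chr20:6390523-6390552, + strand): cttctgccttCTTTTCCggttcccgcagcc
Rpl28 (chr1:78083513-78083542, - strand): cccctagtgtCTTTCTTTCCgtctccggcc
Rpl31 (chr9:49143101-49143130, + strand): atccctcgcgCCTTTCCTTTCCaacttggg
Rps7 (chr6:50999426-50999455, - strand): agagctgtgtCTCTTTCTaagccggcactc
Rpl41 (chr7:1563478-1563507, - strand): ctcggaagtgacgacaccaagcacgccatt
Rpl29 (chr8:115947633-115947662, + strand): tttctctttctcttccggtcccaggcgctg
Rps27a (chr14:107488922-107488951, - strand): agggcggttccttcgacccggagactcggt

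A run of this kind stood at the annotated start of 22 of the 62 genes (35.5%) and of 722 of 27457 promoters in all (2.63%). The runs printed here were 7 to 12 bases long. The core of Ets factor sites (CCGGAAG or CTTCCGG, both strands, in the 300 bases from 250 before to 50 after the start) was held by 21 genes (33.9%), against 9.22% of all promoters. The core of YY1 sites (AAGATGG or CCATCTT, both strands, same window) was held by 8 genes (12.9%), against 7.30% of all promoters. These are matches of letters in annotated sequence, and an annotated start that is off by a few bases hides a run.

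The totals per rat lay between 12479905 and 19007907 counts, and every MS+EA rat (at most 14913736) was below every other rat (at least 16106381). Values are given as CPM, the counts of a gene as a proportion of the total of the rat, scaled to the same large total in every rat after normalization by the trimmed mean of M-values (TMM). All 6 markers of cortical excitatory neurons were present in the 9 rats, with summed levels of 3860 to 5142 CPM, while choroid plexus markers summed to 1.07 to 10.9 CPM and striatal markers to 86.6 to 116 CPM. The excitatory sum was lower in MS+EA (3860 to 4005 CPM) than in MS (4492 to 4606) and Control (4368 to 5142), and haemoglobin and Alas2 of red blood cells were higher in MS (223 to 306) and MS+EA (211 to 304) than in Control (94.6 to 199). The 13 mitochondrially encoded genes summed to 32833 to 38220 CPM in MS, above Control (30233 to 31500) and MS+EA (28184 to 30775). COX1 alone made up 15445 to 22549 CPM of the sum. The median log2 fold change of the 13 was 0.21 for MS against Control and 0.11 for MS+EA against Control. In the latter 5 of 13 lay below 0 (49.1% of all genes tested), and 6 had an edgeR adjusted p under 0.05 (5.40% of all genes tested). Endothelial markers summed to 91.5 to 104 CPM in MS, 72.1 to 85.6 in Control and 74.7 to 90.9 in MS+EA. The share of counts on lncRNA was 0.976% to 1.13% in MS+EA and 0.798% to 0.964% in the other rats. The part of these differences in the results below was not tested.

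Together the 78 genes took 0.385% to 0.474% of the counts of a rat. Their summed level was 4718, 4695 and 4530 CPM in the Control rats A1, A2 and A6. It was 4414, 4391 and 4369 CPM in the MS group (B3, B4 and B6). In the MS+EA rats C3, C10 and C16 it was 4538, 3846 and 4387 CPM. All 3 MS rats lay below all 3 Control rats and differed little among themselves, while the MS+EA rats spread over a wider range than both other groups together, with C10 alone at the bottom. The group means were 4648 ± 103 (Control), 4391 ± 22.6 (MS) and 4257 ± 364 CPM (MS+EA; SD, n = 3 each). The mean of MS differed from Control by -5.51%, and that of MS+EA from Control by -8.41%, or by -3.99% without C10. The mean of MS+EA differed from MS by -3.06%, but by 1.62% in the opposite direction without C10 and by -6.26% without C3. As a share of all counts, without the TMM scale, it differed by -0.0775%. In bulk tissue, fewer cells that are rich in these mRNAs and less of the mRNA per cell cannot be told apart.

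**Figure D1:**
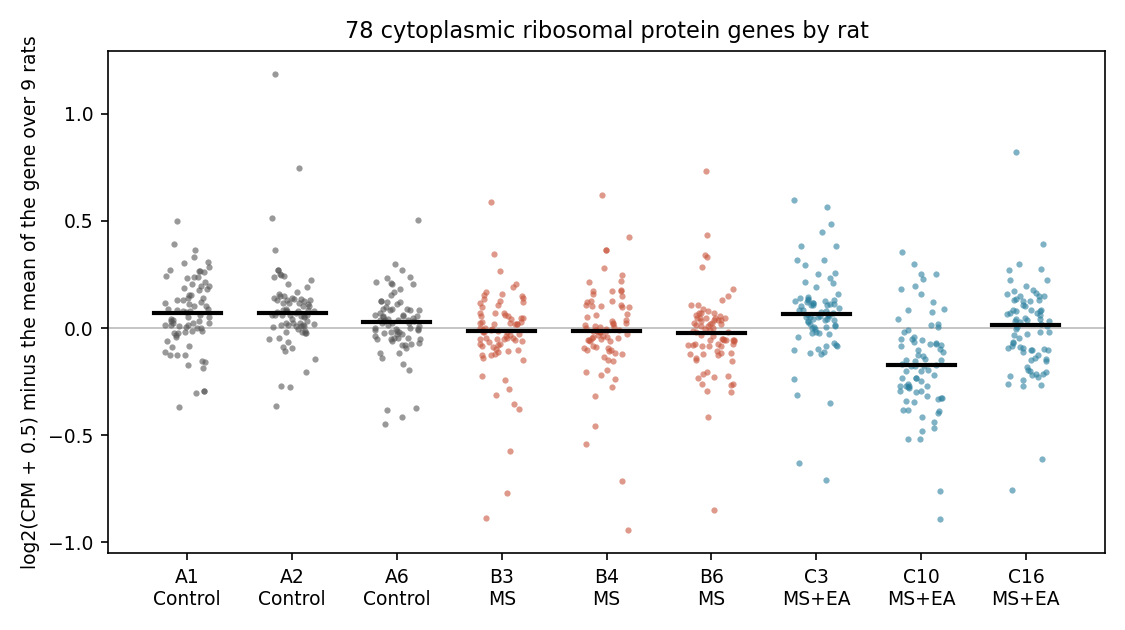
Each point is 1 of the 78 ribosomal protein genes in 1 rat, as log2(CPM + 0.5) minus the mean of that gene over the 9 rats, and black bars are the median of each rat. The medians of the Control rats lie between 0.03 and 0.07, those of the MS rats between -0.03 and -0.01, and C10 lies lowest at -0.17.

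C10 carried the lowest value of all 9 rats for 42 of the 78 genes, and for 38 of the 58 genes with at least 1000 counts. It was below every Control rat in 51 genes and below every MS rat in 48. The other MS+EA rats were below every Control rat in 25 (C3) and 32 (C16) genes. A1 carried the highest value for 24 genes. The same counts were not made over all tested genes, so whether they are particular to ribosomal protein genes was not tested. C10 also had the largest shares of counts on lncRNA (1.13%) and on rRNA genes (0.159%) and the smallest on mitochondrially encoded genes (2.82%) of the 9 rats. Their part in its low ribosomal protein level was not tested.

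The comparison of MS with Control asks what maternal separation left behind in the adult PFC. No ribosomal protein gene passed the 2 thresholds, a fold change of more than 1.5 and an adjusted p of less than 0.05 (background over the 16837 genes tested, 0.0238%), in edgeR's quasi-likelihood test, and neither DESeq2 nor limma-trend called any. None was lower at the adjusted p alone (background 0.00594%). Most genes had a slightly lower level in MS: 59 of 78 had a log2 fold change below 0 (50.3% of all genes tested), with a median of -0.07 against -0.00 over all genes. At an unadjusted p under 0.05 there were 4 lower members (background 3.55%) and 0 higher ones (background 7.06%). The count of 4 fell to 1 without A1 or without A6, and was 11 when the fit held only the 6 rats compared. For 18 members all MS rats were below all Control rats (23.1%, background 7.53%), and only Rps19bp1 lay above in all (background 10%). Its levels were 1.98 to 2.30 CPM in Control and 2.71 to 3.19 CPM in MS, at a log2 fold change of 0.46 ± 0.27 (SE; edgeR adjusted p = 0.569).

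Among large-subunit genes, Rpl30 had the smallest p, and among those that followed were Rpl29, Rpl10a, which forms the mobile L1 stalk, and Rpl28. Rpl30 stood at 36.3, 30.7 and 34.6 CPM in Control and at 30.4, 29.5 and 26.1 CPM in MS. The groups did not overlap, but the lowest Control rat and the highest MS rat nearly met. Its log2 fold change was -0.24 ± 0.10 (SE; edgeR adjusted p = 0.394). The log2 fold changes of Rpl29, Rpl10a and Rpl28 lay between -0.22 and -0.17 with edgeR adjusted p from 0.466 to 0.50. Rpl4 and Rpl3, the members with the most counts (37176 and 30957), were also lower in every MS rat, at log2 fold changes of -0.09 and -0.12. In the small subunit, Rps2, which lines the entry of the mRNA channel, stood at 65.2, 59.4 and 64.3 CPM in Control and at 57.1, 55.1 and 44.1 CPM in MS. The groups did not overlap, at a log2 fold change of -0.27 ± 0.12 (edgeR adjusted p = 0.454).

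Rps27a stood apart from every other member. It encodes ubiquitin fused to a small-subunit protein and so supplies both. It had 952, 1349 and 820 counts in A1, A2 and A6, then 328, 294 and 757 in B3, B4 and B6, and 331, 285 and 802 in C3, C10 and C16. Its levels formed a high set of 5 rats (45.5 to 82.3 CPM: all Control rats, B6 and C16) and a low set of 4 (18.4 to 23.0 CPM: B3, B4, C3 and C10), with no rat between them. Its SD over the 9 rats was 0.84 on the log2(CPM + 0.5) scale, the largest of the 78, before Rpl10l at 0.58. The log2 fold change of MS against Control was -1.15 ± 0.42 (edgeR adjusted p = 0.344), and the range over single omitted rats was 0.280 to 0.724 for that p. When genes with at least 1 count over all rats were kept in the test, the adjusted p was 0.00619, and 0.0414 for MS+EA against Control, where the log2 fold change was -0.81. Without C16 the adjusted p of MS+EA against Control was 0.0487. Other loci now named as Rps27a or its copies held 721 counts, or 10.9% of the family.

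Against Control, MS+EA rats had the clearest single-gene differences. No member passed both thresholds in edgeR, DESeq2 or limma-trend (background 1.37%), but 4 passed the adjusted p alone (5.13% of members, background 5.40%), and all 4 were lower (background for lower genes 2.19%). Among them were Rpl41, Rpl29 and Rpl10 of the large subunit. At an unadjusted p under 0.05 there were 15 lower members (19.2%, background 10.6%) and 2 higher ones, Rpl36 and Rpl32 (background 11.9%). The count of 15 was 6 without A1 and 7 without C10, and the count of 2 was 1 without any of A1, A2, A6, C3 or C10. Of the 78, 53 lay below 0 (background 49.1%) with a median of -0.09 against 0.01 over all genes, and without C10 these became 41 genes and a median of -0.01. In 15 members all MS+EA rats were below all Control rats (19.2%, background 12.9%), and in 2 all were above (background 13%).

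**Figure D2:**
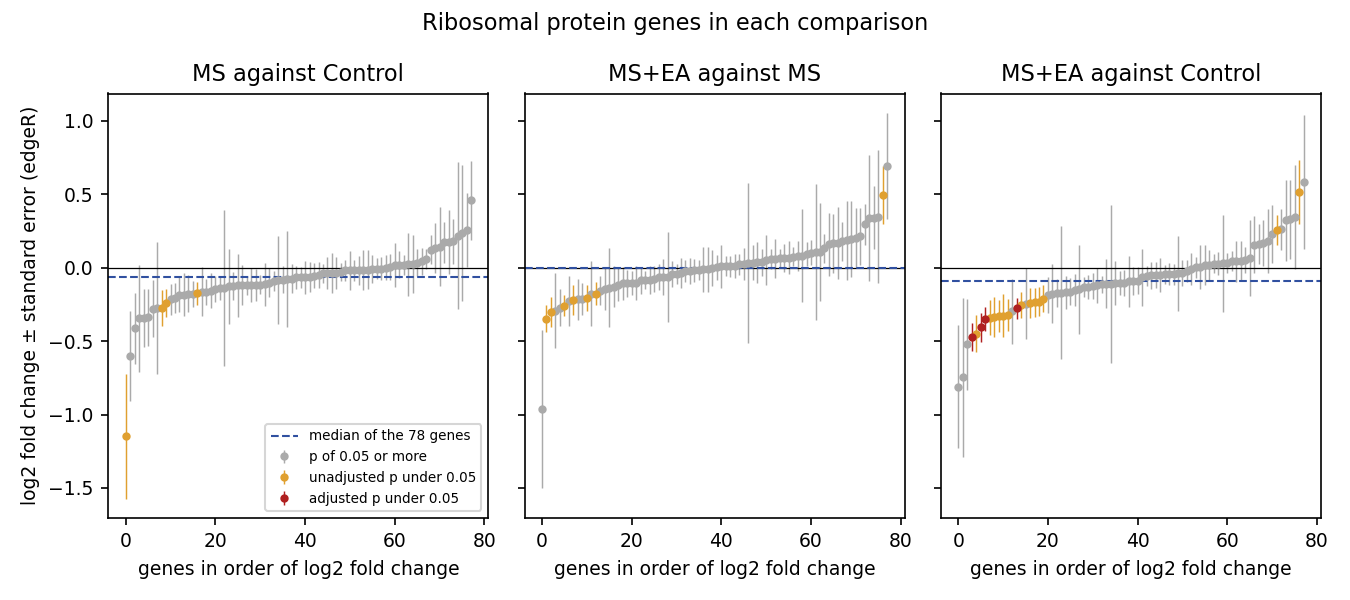
Log2 fold change with its standard error (edgeR) for each of the 78 genes, ordered within each comparison, with colours for the unadjusted and adjusted p and a dashed line at the median. The medians are -0.07, 0.00 and -0.09, and only MS+EA against Control has genes with an adjusted p under 0.05, all 4 of them below 0.

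Rpl41, the smallest and most basic ribosomal protein, which sits between the subunits, had the smallest p. Its level was 43.0, 39.9 and 42.1 CPM in the Control rats, 36.3, 40.9 and 37.5 CPM in the MS rats, and 29.1, 27.5 and 33.7 CPM in the MS+EA rats. Every MS+EA rat was below every rat of both other groups, which themselves overlapped. It was lower than in Control by a log2 fold change of -0.47 ± 0.09 (SE; edgeR adjusted p = 0.0184), and than in MS by -0.35 ± 0.09 (edgeR adjusted p = 0.236). Its copies held only 15 counts, against 5290 on the gene.

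Rpl29, a large-subunit protein whose loss makes mice small, stood at 206, 183 and 184 CPM in Control, at 172, 181 and 155 CPM in MS and at 161, 139 and 149 CPM in MS+EA. The MS rats lay between the other groups and overlapped with MS+EA only through B6 and C3. The log2 fold change of MS+EA against Control was -0.35 ± 0.08 (edgeR adjusted p = 0.0289). Rpl10, which joins the large subunit late in the cytoplasm near the site of the peptidyl-tRNA, had 165, 182 and 166 CPM in Control, 165, 180 and 162 CPM in MS and 151, 137 and 136 CPM in MS+EA. Control and MS coincided, and all MS+EA rats lay below both. Its log2 fold changes were -0.28 ± 0.07 against Control (edgeR adjusted p = 0.0433) and -0.26 ± 0.07 against MS (edgeR adjusted p = 0.236).

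Rps15, in the head of the small subunit close to the decoding site, missed the threshold at a log2 fold change against Control of -0.45 ± 0.13 (edgeR adjusted p = 0.0562). It had 111, 102 and 108 CPM in Control, 106, 99.2 and 78.6 CPM in MS and 90.7, 64.1 and 80.4 CPM in MS+EA. Its adjusted p ranged from 0.00388 to 0.183 over the alternatives and was 0.0104 with DESeq2.

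**Figure D3:**
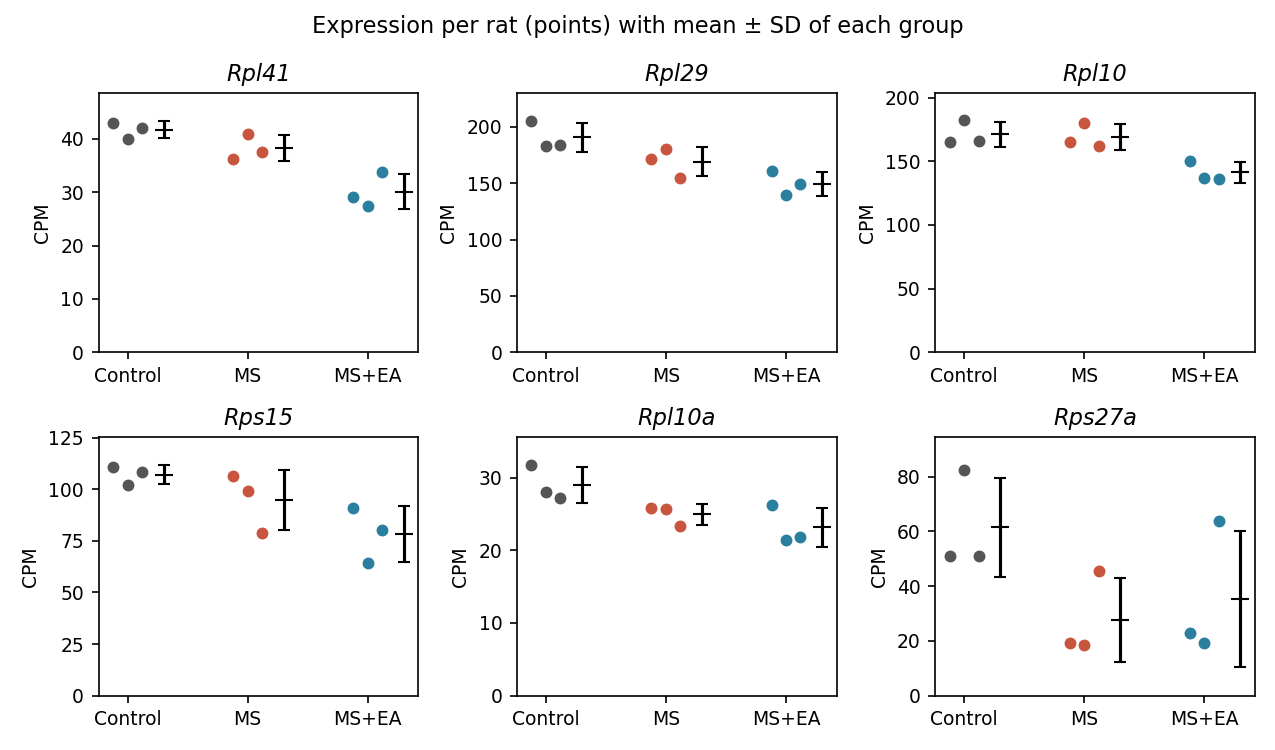
CPM of 6 genes in each rat (points) with the mean ± SD of each group (n = 3). Rpl41, Rpl29, Rpl10, Rps15 and Rpl10a have all MS+EA rats below all Control rats, while Rps27a shows a high and a low set that cuts across MS and MS+EA.

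Rpl41, Rpl29 and Rpl10 kept their direction without C10, but none of them passed the adjusted p without that rat. The edgeR adjusted p was then 0.0593 for Rpl41, 0.0811 for Rpl29 and 0.104 for Rpl10. None of them passed it without A1 (0.0834, 0.132 and 0.110 in the same order) or without A6 (0.0630, 0.0707 and 0.0948). Without A2, Rpl29 (0.0504) and Rpl10 (0.122) did not pass it, and neither did they without C16 (0.0787 and 0.130). After Rps15 came Rps29 (log2 fold change -0.33), Rpl10a (-0.32) and Rpl28 (-0.25), with edgeR adjusted p from 0.0964 to 0.114. On the higher side, Rpl36 stood at 18.6 to 20.3 CPM in Control and 21.3 to 24.8 CPM in MS+EA, at a log2 fold change of 0.26 ± 0.10 (edgeR adjusted p = 0.155). Rpl32 stood at 3.17 to 3.90 CPM in Control and 4.77 to 5.69 CPM in MS+EA (0.51 ± 0.22, edgeR adjusted p = 0.183). Of the reads of the Rpl32 family 73.7% lay on copies, and gene and copies together had means of 16.2, 16.1 and 16.3 CPM in Control, MS and MS+EA.

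The comparison of MS+EA with MS concerns needling and current in separated rats. No member passed both thresholds in edgeR, DESeq2 or limma-trend (background 0.0178%), and none had an adjusted p under 0.05 in edgeR. The directions were even: 39 of 78 lay below 0 (background 49.9%), with a median of 0.00, the same as over all genes. At an unadjusted p under 0.05 there were 6 lower members (7.69%, background 6.42%) and 1 higher (background 6.01%). With total counts in place of TMM these were 3 lower and 2 higher. The 6 became 12 without C3 and 3 without C10, C16 or B4, and the 1 became 0 without C10 or C16 and 2 without B4, B6 or C3. All MS+EA rats lay below all MS rats in 4 members, Rpl41, Rpl10, Rps23 and Rps20 (5.13%, background 9.60%), and above them in 2, Rps12 and Rps24 (2.56%, background 8.27%).

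Besides Rpl41 and Rpl10, the lower members of small p included Rpl31 (log2 fold change -0.21), Rpl29 (-0.18), Rpl17 (-0.22) and Rps15 (-0.27), with edgeR adjusted p from 0.379 to 0.402. Rpl31 and Rpl17 line the rim and wall of the tunnel through which the new chain leaves. Rps12 had 5.89, 3.69 and 6.31 CPM in MS and 6.94, 7.71 and 7.79 CPM in MS+EA. Its groups did not overlap, the Control rats (6.53 to 7.07 CPM) fell between and across them, and B4 was lowest of all. It differed by a log2 fold change of 0.49 ± 0.20 (edgeR adjusted p = 0.334). In its family 87.4% of the reads lay on copies. Rps24, 1 of the genes mutated in Diamond-Blackfan anaemia, had 10.6, 11.1 and 9.08 CPM in MS and 11.3, 14.2 and 12.2 CPM in MS+EA (0.30 ± 0.14, edgeR adjusted p = 0.405).

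By subunit, the medians of the log2 fold changes were close. They were -0.06 (large) and -0.10 (small) for MS against Control, 0.00 and -0.01 for MS+EA against MS, and -0.06 and -0.10 for MS+EA against Control. Of the 58 genes with at least 1000 counts, 47 lay below 0 for MS against Control and 43 for MS+EA against Control, and of the 20 genes with fewer counts 12 and 10. The 15 lower members of MS+EA against Control at an unadjusted p under 0.05 all had at least 1000 counts. Genes with the start-site run had a median of -0.13 for MS+EA against Control (n = 22, 8 lower at an unadjusted p under 0.05, Rpl10 with an adjusted p under 0.05 in edgeR). Genes without it had -0.09 (n = 40, 3 lower, among them Rpl41 and Rpl29), and those with no promoter in the reference table -0.08 (n = 16, 4 lower). For MS against Control the medians were -0.06 with the run (0 of 22 lower), -0.08 without it (3 of 40 lower) and 0.00 with no promoter (1 of 16 lower), and for MS+EA against MS they were -0.04, 0.03 and -0.04. The difference between these sets was not tested.

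The acidic stalk, which recruits the translation factors that split GTP, is built from Rplp0, Rplp1 and Rplp2. Rplp0 stood at 173 ± 10.9 CPM in Control, 165 ± 9.13 in MS and 148 ± 21.7 in MS+EA (SD, n = 3 each), with all MS+EA rats below all Control rats (log2 fold change -0.23, edgeR adjusted p = 0.185). Rplp1, its partner in the stalk, had means of 158, 157 and 155 CPM and log2 fold changes between -0.02 and -0.01 in the 3 comparisons. Rplp2 had only 158 counts on its own locus. Rpsa, which also serves as a laminin receptor at the cell surface, stood at 174 ± 13.0, 164 ± 7.76 and 162 ± 20.2 CPM, and its groups overlapped.

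Paralogs were counted separately and varied separately. Rpl10l, a retrogene relative of Rpl10 known from testis, had 207 counts and stood at 1.34, 2.50 and 0.81 CPM in Control, 0.70, 2.25 and 2.47 in MS and 0.90, 1.27 and 0.56 in MS+EA, with no separation of the groups. Rpl22 (10.7 ± 1.08, 10.5 ± 0.66 and 11.9 ± 1.18 CPM) and Rpl22l1 (14.9 ± 0.77, 14.8 ± 2.27 and 15.1 ± 1.65 CPM) overlapped between all groups. Rpl7 and Rpl7l1 had log2 fold changes between -0.07 and 0.06 in every comparison. Rps27l stood at 1.47 ± 0.33, 1.21 ± 0.86 and 1.31 ± 0.14 CPM, and Rps27 at 12.4 ± 0.92, 11.5 ± 1.96 and 11.5 ± 1.19. Rps4x and Rps4y2 had log2 fold changes between -0.01 and 0.58 with edgeR adjusted p of at least 0.491.

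The least variable members were Rps15a, Rpl26, Rps23, Rpl5 and Rpl7, with SDs of 0.05 to 0.07 on the log2(CPM + 0.5) scale over all 9 rats. The most variable after Rps27a and Rpl10l were Rps13 (0.43), Rps27l (0.41) and Rps9 (0.40), all with fewer than 400 counts. Rpl12, at an SD of 0.39, stood out among genes with more reads, with 7.84 CPM in C10 and 10.4 to 18.7 CPM in the other rats. Across the 9 rats the members were correlated with one another to a moderate degree. Over all pairs the median Pearson r was 0.20, and 0.35 over the 58 genes with at least 1000 counts, of which the first principal component took 46.6% of the variance. Rps7 (r = 0.96) followed the median of the other members most closely, and Rps24 (r = -0.57) and Rpl22l1 (r = -0.51) ran against it. These are descriptions over 9 rats that share a TMM scale and 3 groups, and C10 contributes to each of them.

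Ribosomal protein genes have left many processed copies in the rat genome, and reads of a gene and of a near-identical copy cannot be told apart with certainty. The reference tables now name 558 other loci of the deposited table as ribosomal protein genes or copies. Of these, 53 had at least 90 counts and 314 had none. They held 67641 counts against 634579 on the 78 genes, or 9.63% of both together. Copies already named with Rpl or Rps in the deposited table, and typed there as other than mRNA, held a further 22110 counts. That share leaves them out, while the sums by family below include them. In 13 of 84 families the copies held more counts than the locus with the gene symbol. Loci that now carry the gene symbol itself, such as those for Rps27a, Rps9 and Rps4x, were counted with the copies here. For Rpl8 these were 9729 against 37 counts, for Rps19 2399 against 4, for Rps14 5832 against 356, for Rplp2 2098 against 158 and for Rpl37 3700 against 350. The low sums of Rpl8 and Rps19 therefore stand beside far larger sums on their copies.

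**Figure D4:**
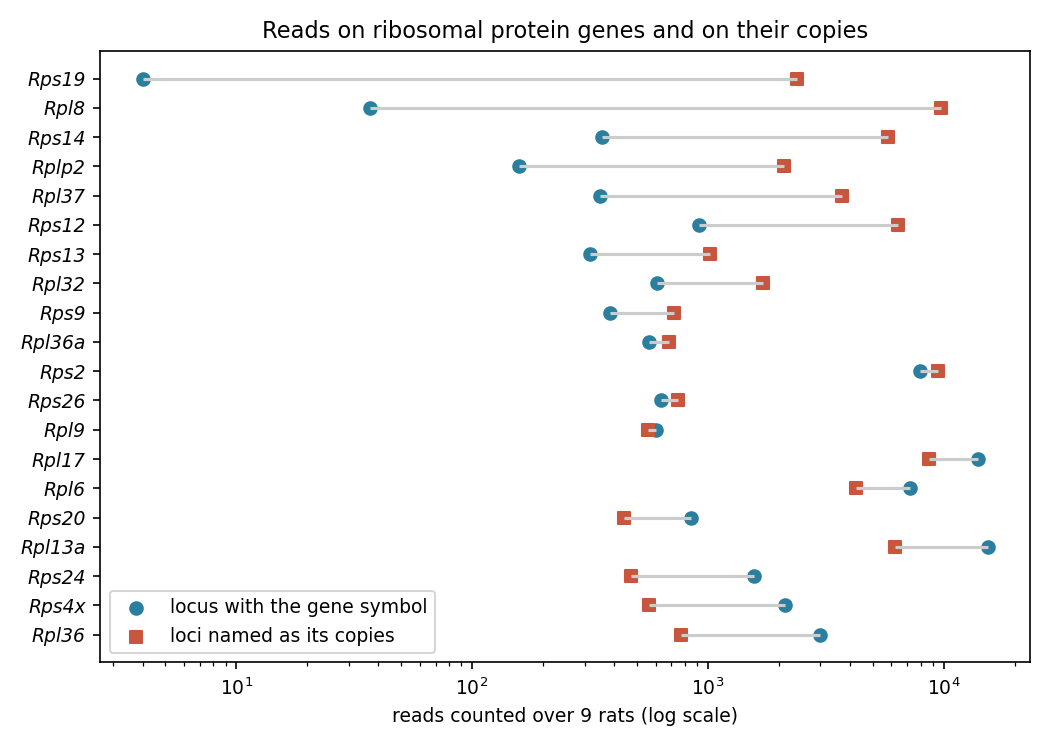
Counts over 9 rats on the locus with the gene symbol in the deposited table (circles) and on the other loci now named as the gene or its copies (squares). The axis is logarithmic, and the 20 families shown had at least 1000 counts of which at least 20% lay on those other loci. For Rps19, Rpl8 and Rps14 the squares lie far to the right, and for Rpl9 both nearly meet.

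The copies of Rps14 held the only locus of this kind past both thresholds. The locus LOC100911847, now named Rps14-ps7 and typed as mRNA in the table, had 1019, 722 and 725 counts in Control, 776, 715 and 601 in MS and 518, 388 and 358 in MS+EA. All MS+EA rats were below all other rats in counts, where their lower totals also play in, and in CPM. On the CPM scale the copies of Rps14 together nearly met between MS and MS+EA, at 36.1 CPM in B6 and 35.9 in C3. The log2 fold change of the locus was -0.67 ± 0.13 against Control (edgeR adjusted p = 0.0184) and -0.48 ± 0.13 against MS (edgeR adjusted p = 0.236). The symbol Rps14 itself, a small-subunit protein of the platform, had 2.55 ± 0.59, 2.33 ± 0.07 and 2.67 ± 0.44 CPM. Gene and copies together stood at 56.6, 46.6 and 48.2 CPM in Control, 47.7, 47.1 and 38.5 in MS and 38.4, 28.4 and 31.9 in MS+EA. For Rps2, gene and copies together had 135 ± 5.96, 118 ± 6.67 and 110 ± 16.3 CPM in Control, MS and MS+EA, and those of Rps12 48.5 ± 0.64, 49.6 ± 5.64 and 56.8 ± 3.78 CPM. For Rpl8 the copies had 68.6 ± 3.21, 67.3 ± 2.52 and 68.9 ± 6.62 CPM.

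Of the ribosomal proteins outside the name rule 3 were tested, among them Fau (a ubiquitin-like fusion to a small-subunit protein) and Gnb2l1, the older symbol of Rack1, a signalling scaffold on the small subunit. All 3 had log2 fold changes below 0 in each comparison, and none had an adjusted p under 0.05 in edgeR. Gnb2l1 stood at 120, 99.6 and 114 CPM in Control, 105, 109 and 96.6 in MS and 106, 81.5 and 94.1 in MS+EA. The groups overlapped, with A1 high and C10 low, at a log2 fold change of -0.25 for MS+EA against Control (edgeR adjusted p = 0.161).

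Other mRNAs with a known TOP motif were examined as a list of 20 tested genes. Their medians were -0.06 for MS against Control, 0.12 for MS+EA against MS and 0.07 for MS+EA against Control, beside -0.07, 0.00 and -0.09 for the ribosomal protein genes, and the difference was not tested. Against Control, 9 of the 20 lay below 0 in MS+EA (background 49.1%). At an unadjusted p under 0.05, 4 were higher (background 11.9%) and 4 lower (background 10.6%). Of these, 2 passed the adjusted p, both higher (background for both directions 5.40%). Tpt1, the translationally controlled tumour protein, stood at 208 ± 8.79 CPM in Control and 304 ± 35.9 in MS+EA (log2 fold change 0.54, edgeR adjusted p = 0.00730). The MS rats, at 261, 284 and 287 CPM, were also above every Control rat. Hnrnpa1, an RNA-binding splicing regulator, stood at 129 ± 16.9 CPM in Control and 166 ± 9.62 in MS+EA (0.37, edgeR adjusted p = 0.0418). Its MS rats, at 125, 119 and 138 CPM, overlapped with Control. Among 48 genes listed by symbol as translation factors, 5 passed the adjusted p for MS+EA against Control (background 5.40%). Of these, 1 passed both thresholds, Eef1e1 (background 1.37%). Eef1e1 (0.72), Eif5 (0.31) and Eif4g2 (0.28) were higher, and Eif5a (-0.51), the hypusine-bearing factor, and Eif4h (-0.28) lower, with edgeR adjusted p from 0.00798 to 0.0344. Every MS rat was also above every Control rat for Eef1e1, Eif5 and Eif4g2, and below every Control rat for Eif4h. For Eif5a the MS and Control rats overlapped.

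In 63 tested genes of ribosome assembly, only Nop56, a core protein of the particles that methylate rRNA, passed the adjusted p (MS+EA against Control, log2 fold change 0.30, edgeR adjusted p = 0.0430; background 5.40%). At an unadjusted p under 0.05 there were 10 higher (background 11.9%) and 6 lower (background 10.6%) in that comparison. Nop56 stood at 41.6, 46.4 and 45.9 CPM in Control and at 56.1, 54.0 and 54.3 CPM in MS+EA. None of 13 tested genes of RNA polymerase I, which makes the rRNA precursor, passed the adjusted p in any comparison in edgeR. At an unadjusted p under 0.05 at most 2 were higher (background 6.01% to 11.9%) and 1 lower (background 3.55% to 10.6%). Of 35 tested genes of the mTORC1 pathway 2 passed, both for MS+EA against Control and near the background of 5.40%. Fnip1, a partner of folliculin at the lysosome, was higher (log2 fold change 0.39, edgeR adjusted p = 0.0157) and the kinase Akt1 lower (-0.28, edgeR adjusted p = 0.0479). For Fnip1 every MS rat (125 to 138 CPM) was also above every Control rat (110 to 122 CPM), and for Akt1 the MS and Control rats overlapped. The kinase Mtor itself stood at 121 CPM in Control, 109 in MS and 109 in MS+EA on average, with log2 fold changes of -0.15 against Control for both groups (edgeR adjusted p = 0.447 and 0.207).

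The ribosomal proteins of mitochondria are encoded by a separate set of nuclear genes, of which 70 were tested. Their medians were -0.03 for MS against Control, -0.02 for MS+EA against MS and -0.05 for MS+EA against Control, and none had an adjusted p under 0.05 in edgeR. Nuclear genes of oxidative phosphorylation (74 tested) had medians of -0.04, -0.05 and -0.10, and 1 of them passed the adjusted p for MS+EA against Control (background 5.40%). Below 0 in that comparison lay 42 of 70 and 53 of 74 of these genes, beside 53 of the 78 cytoplasmic ribosomal protein genes (background 49.1%). The sets were compared by counts and medians only, and whether they differ was not tested.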

How the data were processed

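Total RNA of the frontal cortex of 9 rats, 3 each in the Control, MS and MS+EA groups of the labels, was sequenced on a HiSeq X instrument after removal of rRNA. The submitters' processing notes name HISAT2 2.0.4 and the build Rnor_6.0. The authors deposited whole-number counts of reads per gene without normalization. The counting program, its strand setting and its treatment of reads with several locations are not given in the sources used here. The table held 0 columns of other samples.

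Counts were analysed with edgeR 4.0.16 in R 4.3.3: TMM scaling, filterByExpr (minimum count 10, which all 78 genes passed), 1 quasi-likelihood fit of the group means to all 9 rats, and p-values adjusted by Benjamini-Hochberg for all 16837 tested genes. Calls needed a fold change of more than 1.5 and an adjusted p of less than 0.05, as in the study. DESeq2 1.42.0 (Wald test, independent filtering off) and limma 3.58.1 (trend, prior count 2) were alternatives, with other scalings, filters and the omission of each rat. The procedure was tested on simulated data. Tables and plots used Python 3.11.15, pandas 2.3.3 and matplotlib 3.10.9.

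The members and lists were chosen with earlier results of these data known. Named were the members past the adjusted p, or the 8 of smallest p, in each comparison, the 5 of highest and lowest level and of largest and smallest SD, the stalk proteins, Rpsa, paralog pairs, members that encode no ribosomal protein, those at the limit of 90 counts, and in the other lists the genes past the adjusted p or up to 3 of smallest p. Rps7, Rps12, Rps14, Rps20, Rps24, Rpl8, Rpl22l1, Rpl36, Rpl32, Rpl37, Rps19, Mtor and LOC100911847 were also named where singled out after their values were seen, and some genes that the rule names are not reported here. CPM values use the TMM scale, and log2 values of single rats add 0.5. Levels were not compared between genes, since transcript lengths were not used here. Copies were matched by the current symbol of a locus in the RefSeq tables of GRCr8, from which no coordinate of the mapped reads was taken. Each edgeR p-value sets a difference between groups against the spread between rats within groups. That spread was estimated from all 3 groups, with information shared across the tested genes. Depth limits precision for the 20 members with fewer than 1000 counts.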

Additional observations from a re-analysis of the deposited data

How the results depend on the processing

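None of the log2 fold changes of the members named by smallest p changed direction under the alternatives run. For single genes, 161 of the values under other settings kept their side of the adjusted p, 4 passed it and 3 lost it, and with a rat omitted 125 kept it, 1 passed and 18 lost it. The losses included Rpl10 with total counts (-0.25) and with the 6 rats compared (-0.28), for MS+EA against Control. Members past both thresholds numbered 1 for MS against Control and 1 for MS+EA against Control when genes with at least 1 count were kept, and 4 for MS+EA against Control with no fold change threshold. Members lower at an unadjusted p under 0.05 numbered 11 for MS against Control and 3 for MS+EA against MS with the 6 rats compared, 3 for MS+EA against MS and 9 for MS+EA against Control with total counts, and 3 for MS+EA against MS with at least 10 counts in every rat. Higher members for MS+EA against MS numbered 2 with at least 1 count, total counts, limma-trend or at least 10 counts in every rat. The cause was not tested, except that the last filter leaves fewer members to test.

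With each rat omitted in turn, the numbers ranged as follows for MS against Control, MS+EA against MS and MS+EA against Control. Members past both thresholds numbered 0 to 0, 0 to 0 and 0 to 1. Lower members numbered 1 to 4, 3 to 12 and 6 to 19, and higher members 0 to 0, 0 to 2 and 1 to 2. Medians ranged from -0.09 to -0.06, -0.05 to 0.06 and -0.14 to -0.010. The summed level differed by -6.70% to -4.79%, -6.26% to 1.62% and -11.4% to -3.99%. No paired analysis was possible because the groups share fewer than 2 replicate numbers and the rats are different animals. Groups of 3 rats, reads shared with copies, and lower totals in every MS+EA rat limit these values.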
